A study of Mus musculus with 2 samples.

Results

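Pericytes and stellate cells are the support cells that lie along the islet's vessels and within its connective tissue. They were followed here in single cell RNA sequencing of dispersed islets from WT and *Npc1*-/- mice. Members were chosen by their UMI counts. A cell was counted as a member when at least 4 of the 7 genes *Rgs5*, *Acta2*, *Pdgfrb*, *Ndufa4l2*, *Notch3*, *Cspg4* and *Higd1b* had a UMI (a unique molecular identifier, 1 counted transcript). It also had to hold no UMI of the endothelial genes *Pecam1* and *Cdh5* or of the fibroblast gene *Pdgfra*, and the genes of insulin, of glucagon, of somatostatin and of pancreatic polypeptide with peptide YY each had to give less than 10% of its UMIs. This gave 551 members among 8897 kept cells, of which 260 of 4628 were in the WT library and 291 of 4269 in the *Npc1*-/- library.

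Both groups were female mice aged 2 weeks on a C57BL/6J background, WT littermates and homozygous *Npc1*-/- pups from heterozygous matings, and the loss of *Npc1* was not limited to 1 cell type. Each genotype had 1 library from the pooled islets of 3 mice, so the mice cannot be told apart and a difference between genotypes cannot be told apart from a difference between libraries. The WT library held 114324626 UMIs in 8569 barcodes and the *Npc1*-/- library 127122035 UMIs in 7646 barcodes, and the members contributed 1889545 and 2125612 UMIs. No test was possible with 1 library per group. Levels are therefore given as CPM, the UMIs of a gene per 1000000 UMIs of the summed members, and all intervals are exact 95% intervals that cover counting error only.

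Pericytes wrap capillary endothelium under a shared basement membrane, and signals such as PDGF-B and the Notch ligands of the endothelium keep them in place. Contractile pericytes narrow or widen capillaries, and in the islet they have been described as a source of matrix and growth factors for β cells. Stellate cells are related mesenchymal cells that store retinoids when quiescent and lay down collagen when activated. NPC1 carries cholesterol out of the lysosome, and its loss leaves cholesterol in the lysosomes of many cell types.

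*Npc1* itself was sparse in the members. It had 26 WT and 16 *Npc1*-/- UMIs, a level of 13.8 and 7.53 CPM, and was seen in 8.08% and 4.81% of members. The log2 ratio of *Npc1*-/- to WT was -0.85 (interval -1.86 to 0.09), which includes no difference. The endothelial cells of the same libraries held 20.6 and 9.45 CPM. The library reads the 3′ end of transcripts, and where the allele is altered is not given in the sources used here, so a remaining count does not speak to the label. Of the female-linked transcript *Xist*, 256 of 260 WT and 285 of 291 *Npc1*-/- members held a UMI, while of *Ddx3y*, *Uty*, Kdm5d and *Eif2s3y*, which lie on the Y chromosome, all kept cells together held 1 UMI in each library (Kdm5d in WT and *Uty* in *Npc1*-/-).

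The genes that chose the members are given as a description. *Rgs5*, a regulator of G protein signalling that is a classical pericyte marker (chr1:169655501-169695813, mm10), was the most abundant at 7861 and 7024 CPM in WT and *Npc1*-/-. It had a UMI in 98.5% and 99.0% of members, against 5.50% and 4.98% of endothelial cells, whose median depth was 7568 and 8773.5 UMIs beside 6599.5 and 6690.0 UMIs in members. The PDGF-B receptor *Pdgfrb* stood at 963 and 977 CPM and was seen in 98.8% and 98.6% of members. *Ndufa4l2*, a mitochondrial protein related to a complex IV subunit, was at 2209.5 and 2277 CPM (chr10:127514967-127517154). The receptor *Notch3* was at 716 and 768 CPM (chr17:32120820-32166852) and *Higd1b*, a mitochondrial protein of the hypoxia-induced domain family, at 645 and 595 CPM. Smooth muscle actin *Acta2* (chr19:34241090-34255590) was at 1708 and 1547 CPM, and the proteoglycan NG2 gene *Cspg4* at 415 and 337 CPM. *Acta2* and *Higd1b* were each missing from over 10% of members in both libraries. The plot of the selecting markers sets these levels beside the endothelial, fibroblast and insulin cells.

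**Figure D1:**
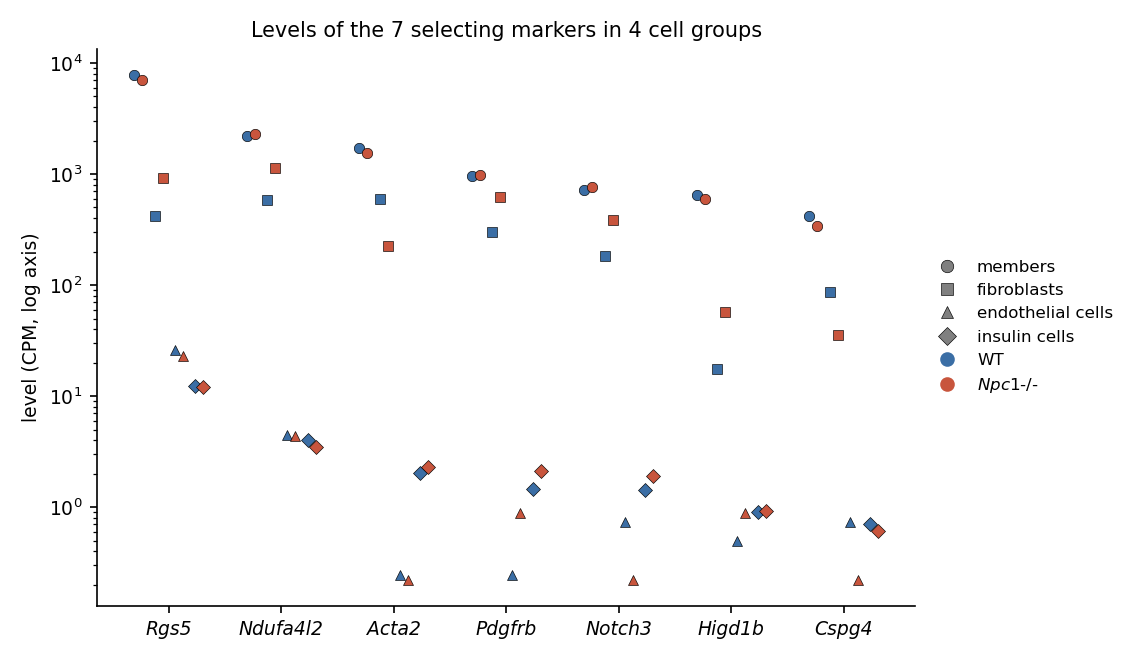
Levels of the 7 genes that chose the members (CPM of summed UMIs, log axis) in members, fibroblasts, endothelial cells and insulin cells of the WT and *Npc1*-/- libraries, 1 point per library. *Rgs5* sat at 7861 and 7024 CPM in members, 422 and 925 CPM in fibroblasts and 26.3 and 23.1 CPM in endothelial cells.

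Markers that the rule did not use were checked next. The ATP-sensitive potassium channel subunits *Kcnj8* (376 CPM in WT and 323 CPM in *Npc1*-/-) and *Abcc9* (259.9 and 264 CPM), the adhesion molecule *Mcam* (337 and 295 CPM), the matrix glycoprotein *Vtn* (310 and 362 CPM) and the complex IV isoform *Cox4i2* (775 and 730 CPM) were all counted. Other cells shared some of them, since *Vtn* stood at 270 and 363 CPM in fibroblasts and *Mcam* at 293 and 303 CPM in endothelial cells. Of the stellate markers, the intermediate filament *Des* (437 and 422 CPM) was present, but the retinol-esterifying enzyme gene *Lrat* and the genes *Gfap* and *Reln* had no count in either library, and 0 UMIs allow a level of up to 1.59 CPM (WT) or 1.41 CPM (*Npc1*-/-). *Hgf* had 0 and 5 UMIs. A wider list of 22 stellate genes had 5 (WT) and 4 (*Npc1*-/-) genes at 0 and summed to 12896 and 15051 CPM in members against 28194 and 31333 CPM in fibroblasts. With *Lrat*, *Gfap* and *Reln* at 0, the cells are called members below and not stellate cells. Of smooth muscle markers, *Myh11* (384 and 419 CPM) and *Tagln* (974 and 981 CPM) were present and *Cnn1* had 0 UMIs in both libraries.

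Genes of other cells were also counted in the members. The 10 endothelial markers summed to 47.1 CPM in WT and 57.4 CPM in *Npc1*-/-, against 16499 and 17829 CPM in endothelial cells. Hormone RNA was found in the members as in the other non-endocrine cells, with insulin transcripts at a median of 2.43% and 1.57% of a member's UMIs beside 2.05% and 1.06% in endothelial cells. The 11 endocrine markers summed to 27488 CPM in WT and 19504 CPM in *Npc1*-/-, with *Ins2* the most abundant. The 9 macrophage markers, with *C1qb* the most abundant, summed to 12.2 CPM in WT and 268 CPM in *Npc1*-/-, and the 11 fibroblast markers, with *Col3a1* the most abundant, to 4794 and 6149 CPM.

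The library labelled *Npc1*-/- had 3 members of a mixed kind. A single barcode carried 559 of the 569 macrophage marker UMIs of that library's members, including all 171 UMIs of *C1qb*, and the next barcode carried 2. A further pair of barcodes held 259 and 231 of the 963 UMIs of the secretory granule gene *Chga* and 263 and 132 of the 470 UMIs of *Chgb*. No WT member reached 100 UMIs of either kind. Without these 3 mixed barcodes, the macrophage markers summed to 4.83 CPM in *Npc1*-/-. Leaving them out made the share of members in *Npc1*-/- 6.75% and the ratio of shares 1.20, against the 6.82% and 1.21 given next, and the endocrine sum 19323 CPM. Counts over all genes are given with and without them, and so are the gene lists whose calls they changed.

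Members made up 5.62% of kept WT cells (4.97 to 6.32) and 6.82% of kept *Npc1*-/- cells (6.08 to 7.61). The ratio of the shares was 1.21 (1.02 to 1.44), so the interval for counting error lay just above 1. Per endothelial cell there were 0.622 WT and 0.724 *Npc1*-/- members, and the interval of their ratio included 1 (1.16, 0.981 to 1.38). Among members with under 2% insulin UMIs the ratio was 3.15, and insulin RNA was itself lower in the *Npc1*-/- members, as given above. How far such a share varies between pools was not tested. The number of markers was near its limit in few cells. Of the members, 7 WT and 10 *Npc1*-/- cells had just 4 markers, with *Rgs5* at 1268 and 809 CPM and the collagen gene *Col1a1* at 3548 and 4925 CPM. Just outside the rule, 4 WT and 3 *Npc1*-/- cells had 3 markers and passed the other conditions, with *Rgs5* at 33.4 and 695 CPM and *Col1a1* at 3470 and 1207 CPM. Members with all 7 markers, 171 in WT and 150 in *Npc1*-/-, had *Rgs5* at 8855 and 8476 CPM and *Col1a1* at 251 and 86.3 CPM.

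*Rgs5* is itself one of the counted markers, so its rise with their number is partly built in. The members also differed in collagen. The levels of *Col1a1*, *Col1a2*, *Col3a1*, *Dcn* and *Lum*, all genes of the fibrillar matrix, were summed in each cell. Most members lay under 3000 CPM (218 of 260 in WT and 242 of 291 in *Npc1*-/-), while 27 WT members (10.4%, 6.96 to 14.7) and 38 *Npc1*-/- members (13.1%, 9.41 to 17.5) reached 10000 CPM. These are called collagen-rich members, and the rest collagen-poor. The limit was set after the values were seen, so collagen-rich names a range and not a type. Few cells lay near it, with 3 WT and 6 *Npc1*-/- members between 5000 and 10000 CPM and 6 and 9 between 10000 and 15000 CPM. The median of the summed level was 1221 and 1199 CPM in collagen-poor and 16821 and 19019 CPM in collagen-rich members.

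**Figure D2:**
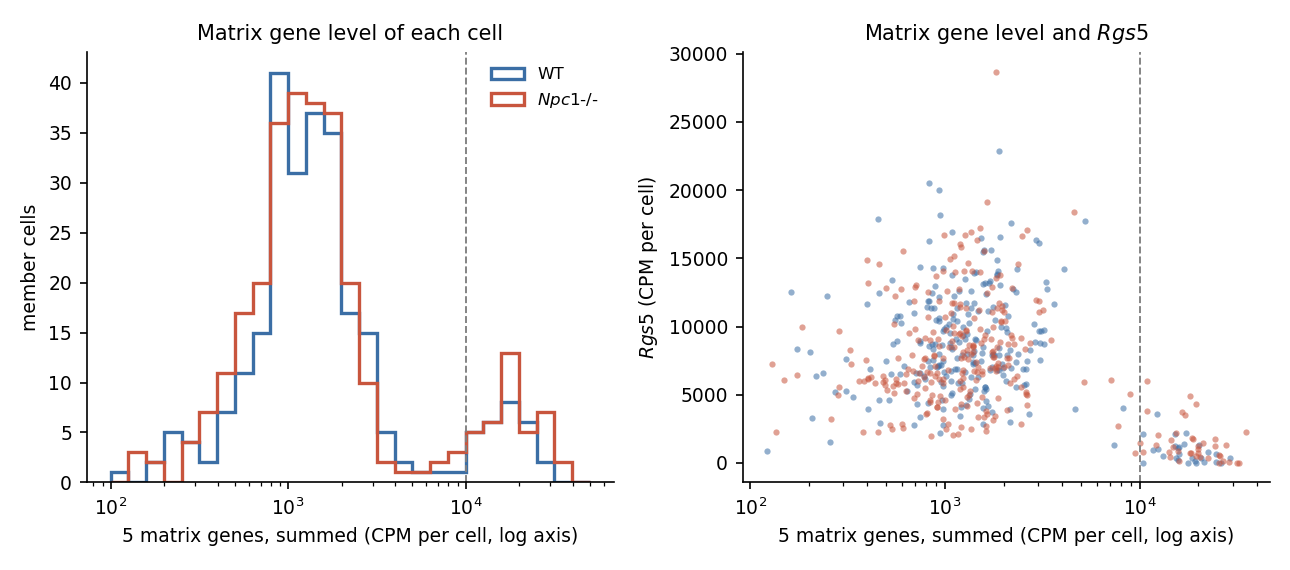
Left, number of members by the summed level of *Col1a1*, *Col1a2*, *Col3a1*, *Dcn* and *Lum* in each cell (CPM, log axis) in WT and *Npc1*-/-. Right, *Rgs5* level of each member against that sum, coloured as on the left, with the dashed line at 10000 CPM. The 27 WT and 38 *Npc1*-/- members beyond the line had median *Rgs5* levels of 618 and 1094 CPM, against 8357 and 7635 CPM in the other members.

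Most pericyte genes were lower where collagen was high. Of 28 genes of pericyte identity compared, 19 were at least 2-fold lower in the collagen-rich members of both libraries and 1, the matrix protein gene *Postn*, was 2-fold higher, against 8.28% and 6.64% of all 5966 genes compared. Others did not follow. *Vtn* was at 287 CPM in collagen-poor and 443 CPM in collagen-rich WT members, and at 266 and 797 CPM in *Npc1*-/-, the transcription factor *Ebf1* at 825 and 677 CPM and at 883 and 880.0 CPM, and the forkhead factor *Foxs1* at 335 and 395 CPM and at 301 and 392 CPM. The selecting genes *Rgs5* and *Higd1b* are given as a description. *Rgs5* had a median of 8357 CPM per collagen-poor WT cell (lowest 849.8 and highest 22856 CPM) and of 618 CPM per collagen-rich WT cell (lowest 0 and highest 3578 CPM). In *Npc1*-/- the medians were 7635 and 1094 CPM. As summed levels, *Higd1b* was at 745 CPM in collagen-poor and 54.9 CPM in collagen-rich WT members, and at 722 and 23.4 CPM in *Npc1*-/-. The heavy chain of smooth muscle myosin, *Myh11*, was at 444 and 29.3 CPM in WT and 504 and 33.7 CPM in *Npc1*-/-. *Kcnj8*, a pore of vascular potassium channels, was at 437 and 18.3 CPM in WT and 384 and 46.7 CPM in *Npc1*-/-. *Pdgfrb* (1035 against 538 CPM in WT), *Notch3* (759 against 457 CPM) and *Acta2* (1870 against 746 CPM) differed less, but a cell with little *Rgs5*, *Higd1b* or *Cspg4* could be a member only through these other selecting genes. Among the 20 genes that fell furthest below the collagen-poor level were the next 3. *Esam*, an adhesion molecule of vessel walls, had 0 UMIs in the collagen-rich members of both libraries beside 460 and 486 CPM in the collagen-poor ones, and the gap junction gene *Gja4* was at 0 and 2.6 CPM beside 583 and 556 CPM. The caveolin gene *Cav1* was at 3.66 and 2.60 CPM beside 305 and 292 CPM.

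The genes that stood furthest above the collagen-poor level in both libraries were *Serpinf1*, which encodes a secreted serpin, the steroid dehydrogenase gene *Hsd11b2* and the cartilage matrix gene *Cilp*. *Serpinf1* was at 216 and 369 CPM in WT and *Npc1*-/- collagen-rich members, with 1 and 0 UMIs in the collagen-poor ones. Matrix genes chose these cells, so the high level of further matrix genes is a description. The collagen-binding protein gene *Mfap4* was at 1697 and 2183 CPM in WT and *Npc1*-/- there, and at 5.57 and 14.9 CPM in the collagen-poor members. The Notch ligand relative *Dlk1*, an imprinted gene, was at 1489 and 732 CPM beside 7.42 and 5.17 CPM. *Col14a1*, a collagen that decorates fibrils, was at 680 and 885 CPM beside 9.28 and 11.5 CPM. *Ptn*, which encodes the growth factor pleiotrophin, was at 2297 and 1493 CPM beside 71.2 and 35.6 CPM. Outside the 20 highest, the growth factor gene *Igf1* was at 194 and 273 CPM beside 22.9 and 18.96 CPM. *Apoe*, an apolipoprotein that takes up cholesterol outside the cell, was at 3603 and 8979 CPM beside 181 and 571 CPM. Without the mixed barcodes its level in the collagen-poor *Npc1*-/- members was 271 CPM. The tissue inhibitor of metalloproteinases *Timp3* ran the other way, at 176 and 127 CPM beside 1128 and 1796 CPM. The *Pdgfra*+ fibroblasts (35 WT and 29 *Npc1*-/- cells) are kept apart from the members by a *Pdgfra* UMI and not by their member markers. Of cells that met all else in the member rule, 21 WT and 25 *Npc1*-/- cells were left out for that UMI. Among the fibroblasts, *Pdgfrb* had a UMI in 80.0% and 96.6% of cells and *Rgs5* in 60.0% and 75.9%, but *Higd1b* in 14.3% and 24.1%. In them *Mfap4* stood at 1603 and 2758 CPM, *Col14a1* at 449 and 733 CPM, *Dlk1* at 596 and 890 CPM and *Esam* at 15.1 and 21.4 CPM. The collagen-rich members took up 0.583% of kept WT and 0.890% of kept *Npc1*-/- cells (ratio 1.53, 0.907 to 2.60), and the collagen-poor members 5.03% and 5.93%, a ratio of 1.18 (0.981 to 1.41).

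Contractile genes varied among the members. For this, each member was thinned to 2000 UMIs, which left 259 WT and 290 *Npc1*-/- cells. *Acta2* had 0 thinned UMIs in 88 WT and 98 *Npc1*-/- cells and reached 34 and 28 UMIs in the highest cells. The cells with the most *Acta2* (64 WT and 72 *Npc1*-/- cells) were set beside equally many with the fewest. The latter all had 0 UMIs and were a part of the 88 and 98 cells at 0, which *Acta2* does not rank. How far their levels depend on which of these were taken was not tested. *Tagln*, an actin-binding protein of smooth muscle, was at 195 CPM in the cells with the fewest *Acta2* UMIs and 2703 CPM in those with the most in WT, and at 236 and 2424 CPM in *Npc1*-/-. The myosin light chain *Myl9* went from 867 to 2328 CPM in WT and from 729 to 2528 CPM in *Npc1*-/-. *Lmod1*, which nucleates actin filaments in smooth muscle, went from 31.3 to 188 CPM and from 34.7 to 236 CPM. Across single cells the Spearman correlation with *Acta2* was 0.64 in WT and 0.60 in *Npc1*-/- for *Tagln*, and 0.39 and 0.54 for *Myl9*. These correlations are over cells of 1 library at 1 depth and are a description. *Rgs5* and *Acta2* both helped to choose the members, so their values beside each other are partly set by the rule and are a description. *Rgs5* barely moved with *Acta2*, at 7859 and 8305 CPM in WT and 6958 and 7444 CPM in *Npc1*-/-, with a correlation of 0.06 in both. Other contractile genes differed in this, with correlations with *Rgs5* of 0.07 and 0.04 in WT and *Npc1*-/- for *Tagln*, 0.06 and -0.13 for *Lmod1*, 0.21 in both for *Myh11* and 0.19 and 0.20 for the tropomyosin *Tpm1*. *Abcc9*, the regulatory subunit of the vascular potassium channel, ran against *Acta2*, from 297 to 164 CPM in WT and from 438 to 153 CPM in *Npc1*-/-. *Col3a1* likewise went from 1891 to 523 CPM and from 2056 to 833 CPM. Collagen-rich members had less *Acta2* than the others and more *Col3a1*, at 7361 against 762 CPM in WT and 8135 against 713 CPM in *Npc1*-/-. Their part in this contrast was not tested. Of 16 contractile genes with at least 30 thinned UMIs in each library, 8 were at least 1.5-fold higher in the cells with the most *Acta2* in both libraries, against 53 of 1320 genes in all (4.02%). Others did not follow. The light chain kinase *Mylk* went from 336 to 578 CPM in WT but from 521 to 451 CPM in *Npc1*-/-, and the phosphatase inhibitor *Ppp1r14a* from 203 to 273 CPM and from 271 to 257 CPM. The plot of cells with the fewest and the most *Acta2* UMIs shows 17 genes chosen after their values were seen.

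**Figure D3:**
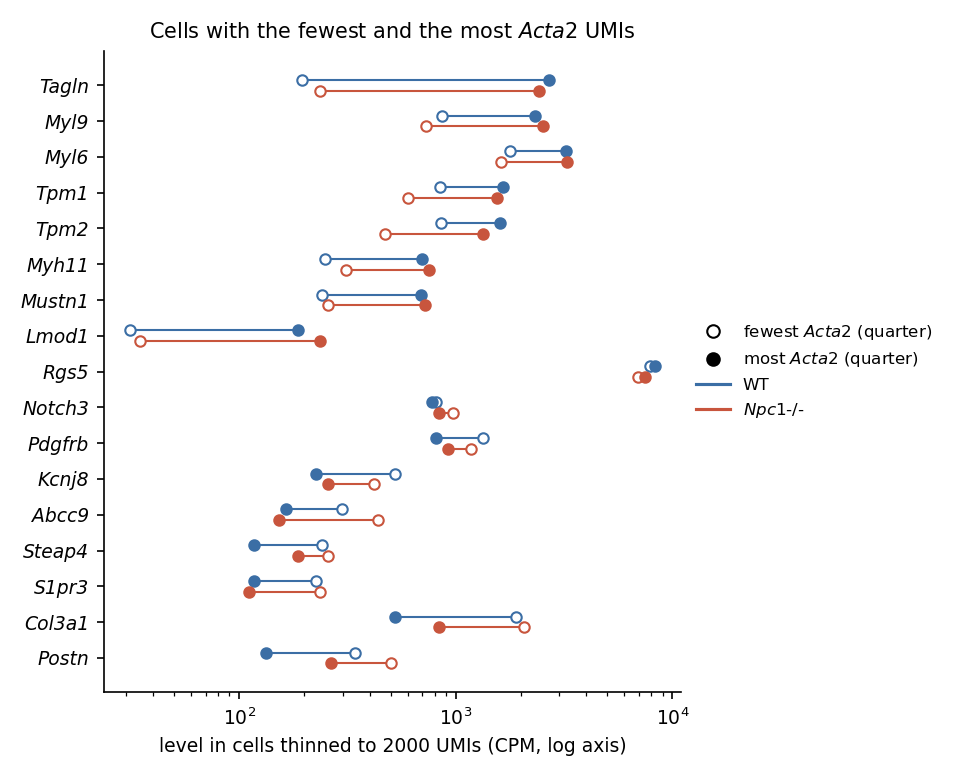
Levels (CPM after thinning each member to 2000 UMIs, log axis) of 17 genes in the members with the fewest (open) and the most (filled) *Acta2* UMIs, in WT and *Npc1*-/-. *Tagln* stood at 195 and 2703 CPM in WT, and *Rgs5*, which like *Acta2* helped to choose the members, at 7859 and 8305 CPM.

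Contractile genes are known targets of serum response factor, which binds the CArG box, and the upstream sequences of the contractile list were searched for it. The box was looked for on both strands in the 250 bases before each gene's start in RefSeq (GRCm38.p6). It was found for 6 of the 23 contractile genes with a sequence (26.1%), against 439 of 27025 promoters in all (1.62%). *Tagln* had no entry among the promoter sequences used. The windows of 3 of the 6 are shown as examples, with the box in capitals and 10 bases on either side, 5′ to 3′ on the gene's strand. The others with a box were *Acta1*, *Myl6* and *Srf*, and *Acta2* was not among the 6. *Acta1* had 0 UMIs in the collagen-poor WT members and 1 in the collagen-poor *Npc1*-/- members. The box began 161 bases before the start of *Myl9* (chr2:156775293-156775322, plus strand), 56 before that of *Cnn2* (chr10:79988534-79988563, plus strand) and 90 before that of *Actg1* (chr11:120348566-120348595, minus strand).
*Myl9*: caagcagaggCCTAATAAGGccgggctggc
*Cnn2*: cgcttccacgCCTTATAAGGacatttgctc
*Actg1*: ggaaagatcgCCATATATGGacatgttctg
A match is a description of the letters and shows no binding. The list was made of contractile genes, which are known targets, so its share describes the list and not the members. Beside these windows, *Myl9* varied with *Acta2* among the members as given above. *Cnn2* went from 281 to 336 CPM in WT and from 167 to 431 CPM in *Npc1*-/- between the cells with the fewest and the most *Acta2*, and *Actg1* hardly moved, from 1586 to 1648 CPM and from 1403 to 1688 CPM. Between the genotypes *Myl9* differed little, at 1382 and 1324 CPM in WT and *Npc1*-/-.

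The members were then compared with the endothelial cells and fibroblasts of the same libraries. Of 7663 genes compared, the genes that chose any group left out, 88 were at least 4-fold higher in members than in both other groups in both libraries (1.15%), and 84 were at least 4-fold lower (1.10%). The higher genes included 10 of 28 genes of pericyte identity and 4 of 23 contractile genes. *Casq2*, a calcium-binding protein of the muscle reticulum, stood at 128 and 111 CPM in WT and *Npc1*-/- members, with 0.248 and 0 CPM in endothelial cells and 0 CPM in the fibroblasts of both libraries. *Cysltr2*, a receptor for cysteinyl leukotrienes, stood at 67.2 and 93.1 CPM, and *Mustn1*, a small protein of the musculoskeletal system, at 319 and 363 CPM against 12.2 and 16.0 CPM in endothelial cells. The serine protease inhibitor *Serpini1* was at 234 and 264 CPM, the calmodulin-binding *Nrgn* at 257 and 269 CPM, and the γ-glutamyltransferase relative *Ggt5* at 123 and 129 CPM. The olfactory receptor gene *Olfr558* was at 280 and 282 CPM, with 0 and 0.659 CPM in endothelial cells and 12.6 and 24.9 CPM in fibroblasts. The remaining genes of the 15 that stood out most were *Ddit4l*, *Slc38a11*, *Map3k7cl*, *Rbpms2*, *Nrip2*, *Pla1a*, *Rtn4rl1* and *Lgi1*, all between 55.5 and 152 CPM. The cells are not replicates and the groups were cut from the same counts, so these ratios are values of 2 libraries and not a test. The fibroblasts could hold any number of member markers, as given above.

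Of 15 genes of the low oxygen response and of isoform switches compared with the other groups, 1 was at least 4-fold higher in members and 0 were lower. That gene, *Cox4i2*, the isoform that replaces *Cox4i1* in lung and vessel walls, was at 775 and 730 CPM in members and at 4.96 and 5.05 CPM in endothelial cells. Conversely, *Ndufa4*, the paralogue of *Ndufa4l2*, was at 51.9 and 87.5 CPM in members against 504 and 524 CPM in endothelial cells. Of the 16 low oxygen genes tested, *Ndufa4* alone lay past 1.5-fold between genotypes, with a log2 ratio of 0.76 (0.40 to 1.13) in all members and 0.42 in collagen-poor members without the 3 mixed barcodes. ACGTG, the core of the site bound by hypoxia-inducible factors, was found on either strand in the promoters of 11 of 21 genes of this list (52.4%), against 18.5% of all promoters. The list was made of genes of the low oxygen response, so this share describes the list and not the members, and a match shows no binding. *Ndufa4l2*, *Higd1b* and *Cox4i2* had no entry among the promoter sequences used.

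Between the genotypes, most of the members' genes differed little. Of 6061 genes that reached 25 CPM in at least 1 library, 166 were at least 1.5-fold higher in *Npc1*-/- than in WT relative to the median gene (2.74%) and 149 were at least 1.5-fold lower (2.46%), and 94.8% lay between. Without the 3 mixed barcodes the counts were 164 and 161, with 143 and 140 genes shared. In the collagen-poor members without those barcodes they were 159 and 212, of which 88 and 124 were shared with the calls in all members. In endothelial cells 26 genes were higher and 65 lower of 5932 tested. All ratios below are log2 ratios of *Npc1*-/- over WT relative to the median gene.

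**Figure D4:**
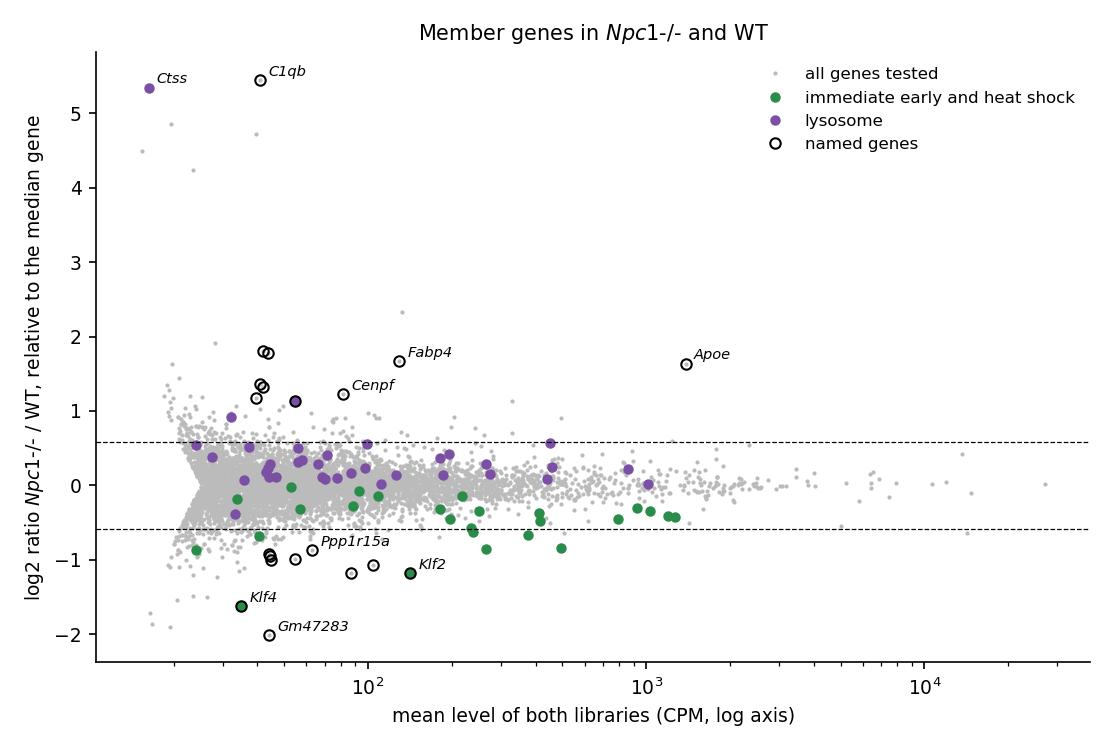
Log2 ratio of *Npc1*-/- over WT in members, relative to the median gene, against the mean level (CPM, log axis) for 6061 genes, with immediate early and heat shock genes, lysosome genes and the 20 genes named by size marked, and dashed lines at 1.5-fold. The 26 tested immediate early and heat shock genes all lay below 0 and 35 of the 36 lysosome genes above 0.

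Identity genes were close between the genotypes. None of the 28 tested genes of pericyte identity passed 1.5-fold in either direction, and their median log2 ratio was -0.04. In the collagen-poor members without the mixed barcodes 1 of 30 was higher, the forkhead factor *Foxf2* at 14.8 and 26.1 CPM (0.80, 0.06 to 1.59). The transcription factor *Ebf1* was at 803 and 882 CPM in WT and *Npc1*-/-, the soluble guanylate cyclase subunit *Gucy1a1*, through which nitric oxide relaxes vessel walls, at 633 and 606 CPM, and the endothelin receptor *Ednra* at 247 and 314 CPM. None of the 23 contractile genes passed either, with a median of -0.04. Examples are the light chain *Myl6* at 2087 and 2230 CPM, the tropomyosin *Tpm2* at 1001 and 889 CPM, and the actin regulator *Cald1* at 1773 and 1779 CPM.

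Few matrix genes passed 1.5-fold between the genotypes. Of 39 basement membrane and matrix genes over all members, 27 lay above the median gene, with a median log2 ratio of 0.18. *Timp3* and the fibronectin gene *Fn1*, 2 of the 39, were past 1.5-fold higher and 0 were lower, beside 2.74% higher and 2.46% lower over all genes. *Timp3* was at 990 and 1493 CPM in WT and *Npc1*-/- (log2 ratio 0.60, 0.51 to 0.68). It was at 1128 and 1827 CPM (0.69) in the collagen-poor members without the mixed barcodes, and in endothelial cells at 837 and 1140 CPM (0.43), a smaller step in the same direction. *Fn1* was at 71.4 and 138 CPM (0.95) over all members but at 19.2 and 26.1 CPM (0.43, -0.26 to 1.15) in the collagen-poor ones. The basement membrane collagen *Col4a1* was at 2663 and 2796 CPM and *Sparc* at 6121 and 6939 CPM. Of the 33 matrix genes tested in the collagen-poor members without the mixed barcodes, 1 was higher and the median was 0.06. Of 15 stellate genes, 3 were higher, among them *Timp3* and *Fabp4*, and of 9 fibroblast genes 4 were higher, *Dpt*, *Lum*, *Dcn* and *Mfap4*, which were all carried mostly by the collagen-rich members. In the collagen-poor members without the mixed barcodes 4 of 14 stellate genes were higher, *Timp3*, *Fabp4* and the lipase inhibitor *Angptl4* (45.2 and 71.2 CPM) among them, and of 6 fibroblast genes *Dcn* was higher (12.4 and 35.02 CPM) and *Fbln1* lower (28.5 and 15.4 CPM). Few cells set the level of *Dcn*, which is among the genes whose sum set the limit. With the mixed barcodes included, its 20 WT and 59 *Npc1*-/- UMIs lay in 2.58% and 2.77% of collagen-poor members.

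*Apoe* had the highest level among the 20 genes named by size. It was at 676 and 2095 CPM in WT and *Npc1*-/- (log2 ratio 1.64, 1.55 to 1.73; chr7:19696109-19699188). Collagen-rich members held 77.1% of its UMIs in WT and 77.7% in *Npc1*-/-, and 1 mixed barcode held a further 537 of 4453 in *Npc1*-/-. Within the collagen-rich members the median cell held 3733 CPM in WT (lowest 0 and highest 11846) and 8258 CPM in *Npc1*-/- (lowest 217 and highest 18083), so the ranges overlapped but the *Npc1*-/- cells lay higher. The ratio of their summed levels was 2.49 (2.32 to 2.68). In the collagen-poor members without the mixed barcodes *Apoe* was at 181 and 271 CPM (log2 ratio 0.58, 0.36 to 0.79), but few cells set these levels. It had a UMI in 36 of 233 WT and 62 of 250 *Npc1*-/- cells, and the median cell held 0. A pair of WT cells held 187 and 53 of the 292 UMIs, and a pair of *Npc1*-/- cells, with matrix sums of 9503 and 7766 CPM just under the limit, held 198 and 99 of the 456. Without the highest cell of each library the levels were 65.4 and 154 CPM (log2 ratio of levels 1.23, 0.90 to 1.58), and without the highest pair 32.7 and 95.4 CPM (1.53, 1.08 to 2.02). These values were added after the data were seen, and the size of the difference in collagen-poor cells thus depended on single cells. In *Pdgfra*+ fibroblasts it was at 4435 and 6513 CPM and in endothelial cells at 197 and 257 CPM.

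Other genes of the collagen-rich members also differed between the libraries. The matrix Gla protein gene *Mgp* was at 16558 and 25066 CPM in WT and *Npc1*-/- (ratio 1.51, 1.46 to 1.57), *Dcn* at 2312 and 3403 CPM (1.47, 1.34 to 1.62), and *Dpt*, which encodes the fibril-binding dermatopontin, at 121 and 353 CPM (2.92, 1.99 to 4.42). The Wnt modulator *Sfrp2* was at 128 and 299 CPM (2.33) and the ectonucleotidase *Entpd2* at 43.9 and 228 CPM (5.204, 2.83 to 10.5). *Dlk1* was lower in *Npc1*-/-, at 1489 and 732 CPM (0.492, 0.421 to 0.574). *Col1a1* hardly differed, at 3856 and 4182 CPM (1.08, 1.003 to 1.17). *Dcn* and *Col1a1* were among the genes whose sum chose the collagen-rich cells, so their values here are a description. All of these are values of 27 and 38 cells of 1 pool each.

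*Fabp4* differed outside the collagen-rich cells. This fatty acid carrier, typical of fat cells and capillary endothelium, was at 61.9 and 198 CPM in WT and *Npc1*-/- (log2 ratio 1.67, 1.38 to 1.99; chr3:10204088-10208576). It had a UMI in 46 of 260 WT members and 121 of 291 *Npc1*-/- members, and no cell held more than 23 of the 117 UMIs in WT or 30 of the 420 in *Npc1*-/-. Collagen-poor members without the mixed barcodes had levels of 71.2 and 237 CPM (1.73). Endothelial cells, which hold far more of it, stood at 668 and 707 CPM, and insulin cells at 1.01 and 2.61 CPM. The endothelial markers summed to 47.1 and 57.4 CPM in members, and their part in the difference was not tested. Over all members the matricellular growth factor *Ctgf* was also higher, at 202 and 321 CPM (0.67, 0.49 to 0.86), as was *Bmp4* at 12.7 and 25.4 CPM (0.99, 0.29 to 1.76). These lay partly in the collagen-rich cells. *Ctgf* was at 58.5 and 361 CPM there and at 226 and 321 CPM (0.50), within 1.5-fold, in the collagen-poor members without the mixed barcodes. Collagen-rich cells held 20 of 24 WT and 39 of 54 *Npc1*-/- UMIs of *Bmp4*. Both were among the 3 of 12 tested islet growth and neurotrophic factors that were higher, and in the collagen-poor members without the mixed barcodes 2 of 10 were higher and *Ptn* lower (71.2 and 36.8 CPM), while over all members *Bdnf* was at 64.0 and 63.5 CPM and *Mdk* at 445 and 426 CPM.

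Immediate early and heat shock genes were lower in *Npc1*-/-. *Klf2*, a transcription factor induced by flow, was at 196 and 86.6 CPM in WT and *Npc1*-/- (log2 ratio -1.17, -1.44 to -0.92; chr8:72319033-72321656). It had a UMI in 128 of 260 and 101 of 291 members. Its relative *Klf4* was at 52.9 and 16.9 CPM (-1.63, -2.23 to -1.08; chr4:55527143-55532466). In endothelial cells the same 2 genes were not lower, at 1337 and 1473 CPM for *Klf2* and 332 and 372 CPM for *Klf4*. *Junb* was at 637 and 354 CPM (-0.84) and *Fosb* at 343 and 188 CPM (-0.86). Of the 26 tested immediate early and heat shock genes, 8 were past 1.5-fold lower, 0 higher and all 26 lay below the median gene, with a median of -0.42. Their summed level was 10636 CPM in WT and 7730 CPM in *Npc1*-/- members. The same list was lower in the other cells, with a summed level of 12990 and 10769 CPM in endothelial cells (23 of 26 genes below the median gene) and 2816 and 1689 CPM in insulin cells (17 of 17), so the list was lower in each of these cell groups of the *Npc1*-/- library, and the part of that in the members' values was not tested.

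A few signalling genes passed 1.5-fold in either direction over all members. In the collagen-poor ones without the mixed barcodes, *Id1* and *Ctgf* kept their direction but lay within 1.5-fold. Of 28 tested genes of PDGF, Notch, TGFβ and angiopoietin signalling, 2 were higher (*Ctgf* and *Bmp4*) and 3 lower, among them *Id1* and *Nrarp*, with a median of 0.04, beside 2.74% higher and 2.46% lower over all genes. Without the mixed barcodes 2 were higher and 2 lower, and in the collagen-poor members without those barcodes 0 of 26 were higher and 1 was lower. *Id1*, an inhibitor of differentiation that BMP signals induce, was at 620 and 396 CPM (-0.64, -0.77 to -0.51) over all members and at 713 and 490 CPM (-0.55), within 1.5-fold, in those collagen-poor ones, while endothelial cells held 1099 and 1136 CPM. The Notch target *Nrarp* was at 142 and 93.6 CPM (-0.59), or -0.56 without the mixed barcodes, and the Notch target *Heyl* at 280 and 275 CPM (-0.03). The ligand *Pdgfa* was at 360 and 338 CPM.

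Few lysosome genes passed 1.5-fold between the genotypes. Most lay slightly above the median gene in *Npc1*-/-, by a size that depended on few cells. Over all members, 35 of 36 tested lysosome genes lay above the median gene, with a median log2 ratio of 0.24. Of these 36, 3 were past 1.5-fold higher, among them *Ctss* and *Ctsh*, and 0 lower, beside 2.74% higher and 2.46% lower over all genes. All 68 *Npc1*-/- UMIs of *Ctss* lay in 1 cell. Without the 3 mixed barcodes, 31 of 35 lay above, 2 were past 1.5-fold and the median was 0.19. In the collagen-poor members without those barcodes, 27 of 35 lay above, 0 were past 1.5-fold and the median was 0.12. The protease *Ctsl* was at 364 and 539 CPM over all members and at 304 and 389 CPM (0.35, 0.18 to 0.52) in the collagen-poor ones. The abundant membrane protein *Lamp1* was at 426 and 451 CPM and *Laptm4a* at 1009 and 1020 CPM. In endothelial cells 17 of 36 lay above the median gene with a median of -0.01, and in insulin cells 15 of 27 with a median of 0.01.

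Most cholesterol genes other than *Apoe* were close between the libraries. Of 7 tested genes of sterol synthesis and uptake, *Srebf2*, the regulator of the pathway, alone passed 1.5-fold, at 15.3 and 26.3 CPM (0.77, 0.11 to 1.48). The synthesis enzyme *Hmgcs1* (32.3 and 30.6 CPM) and the exporter *Abca1* (31.2 and 32.0 CPM) had intervals that included 0. NPC1's luminal partner *Npc2* was at 141 and 198 CPM (0.49, 0.27 to 0.72), and at 140 and 152 CPM (0.11, -0.16 to 0.37) in the collagen-poor members without the mixed barcodes. Of 19 autophagy and mitophagy genes, *Pink1*, a kinase that marks damaged mitochondria, alone passed, at 61.4 and 102 CPM (0.73, 0.40 to 1.07) in all members and 61.9 and 97.9 CPM in the collagen-poor ones without the mixed barcodes. The lipidated autophagosome protein gene *Map1lc3b* was at 405 and 482 CPM and *Gabarap* at 404 and 510 CPM. Of 13 mitochondrially encoded and 34 nuclear oxidative phosphorylation genes, 0 passed in either direction over all members, with medians of 0.06 and -0.05. In the collagen-poor members without the mixed barcodes the complex I subunit gene mt-Nd4l alone passed, at 132 and 200.03 CPM (0.59, 0.34 to 0.84). Examples are *mt-Co1* at 6674 and 7075 CPM and *Atp5b* at 1058 and 908 CPM. Of 10 apoptosis genes 0 passed, with *Bax* at 197 and 198 CPM.

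Cell cycle genes separated by phase. Of 11 tested genes of DNA synthesis, 10 were past 1.5-fold lower in *Npc1*-/- and 0 higher, and their summed level was 534 and 266 CPM in WT and *Npc1*-/-. The replication clamp *Pcna* was at 45.5 and 28.2 CPM, the ribonucleotide reductase subunit *Rrm2* at 30.7 and 7.998 CPM and thymidylate synthase *Tyms* at 73.0 and 36.7 CPM (-0.98, -1.41 to -0.58). Of 12 tested genes of G2 and mitosis, 4 were past 1.5-fold higher and 0 lower, and the summed level was 631 and 871 CPM. *Cdc20*, which drives exit from mitosis, was at 23.8 and 59.7 CPM (1.32, 0.83 to 1.86), and *Cenpf*, a kinetochore protein, at 48.7 and 114 CPM (1.23, 0.88 to 1.59). Both sets rested on few cells, with at least 3 UMIs of the synthesis set in 49 WT and 36 *Npc1*-/- members and of the G2 and mitosis set in 22 and 21. The 5 highest cells held 52.4% of the G2 and mitosis UMIs in WT and 67.4% in *Npc1*-/-. After thinning to 2000 UMIs, 6.56% of WT members (3.87 to 10.3) and 4.83% of *Npc1*-/- members (2.66 to 7.97) had at least 3 UMIs of that set, and the intervals overlapped. The order of the shares was not stable. It turned at 1000 UMIs (3.85% and 4.81%) and, with doublets removed at the expected rate, at 2000 UMIs (1.22% and 3.94%), while at 4000 UMIs with doublets removed it was 3.90% and 2.77%. Removing those doublets took out 13 WT and 11 *Npc1*-/- members and left 247 and 280. Members with at least 3 unthinned UMIs of the G2 and mitosis set fell from 22 to 11 in WT and from 21 to 14 in *Npc1*-/-. The step thus took out cycling cells, more of them in WT, and its part in the next values was not tested. In the members left, the G2 and mitosis set summed to 181 and 786 CPM, with 11 of 11 tested genes higher. The synthesis set summed to 357 and 202 CPM, with 6 of 7 lower. *Cdc20* then had a log2 ratio of 3.92 and *Cenpf* of 2.91. Without the 3 mixed barcodes 5 cell cycle genes were higher and 10 lower of 26, against 4 and 10 over all members. The share was 8.46% and 7.22% before thinning, and the thinned share was 3.83% and 2.99% in endothelial cells and 3.87% and 3.51% in insulin cells.

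**Figure D5:**
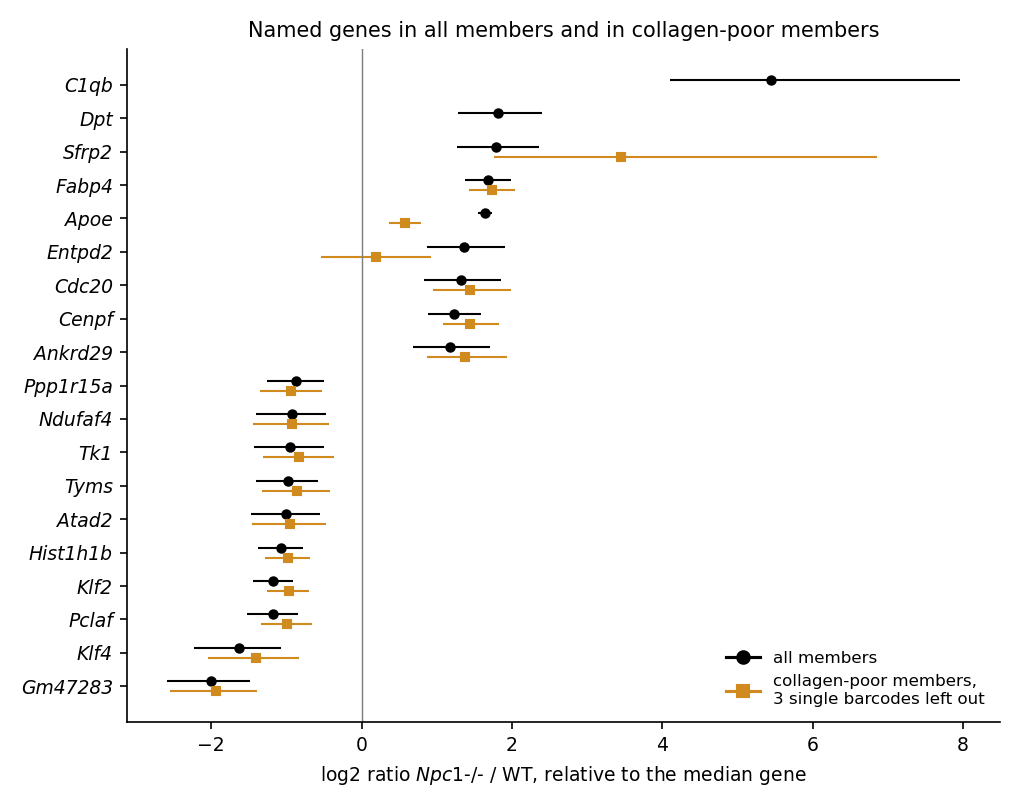
Log2 ratio of *Npc1*-/- over WT, relative to the median gene, with 95% counting intervals, for 9 of the 10 highest and the 10 lowest named genes in all members (black) and in collagen-poor members with the 3 mixed barcodes left out (orange, drawn where at least 10 UMIs were counted and the interval is finite). *Fabp4* stood at 1.67 and 1.73 and *Klf2* at -1.17 and -0.97.

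Among the 20 genes named by size, shown in the plot of named genes, those that kept their side of 1.5-fold in the collagen-poor members without the mixed barcodes were *Fabp4*, *Cdc20*, *Cenpf* and *Ankrd29* on the higher side and all 10 on the lower side. *C1qb* had 0 UMIs in both libraries there, *Sfrp2* (2 and 28 UMIs), *Dpt* (2 and 3 UMIs) and *Entpd2* (19.2 and 21.96 CPM) were under the level tested, and *Apoe* lay within 1.5-fold there, a value set by few cells as given above. The lower genes included *Pclaf*, a clamp-associated factor (-1.18), the linker histone *Hist1h1b* (-1.07, beside 0.82 in endothelial cells), *Atad2* (-1.003), *Tk1* (-0.95), the complex I assembly factor *Ndufaf4* (-0.93) and *Ppp1r15a*, a phosphatase subunit of the stress response (-0.87). With doublets removed at the expected rate, *Hist1h1b* was at -0.03 and *Tk1* at -0.28, both within 1.5-fold, and *Pclaf* at -0.77.

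Of the remaining lists, 1 of 10 integrated stress response genes was higher and 2 were lower, with the shared regulator *Atf4* at 122 and 133 CPM and the mitochondrial folate enzyme *Mthfd2* at 25.9 and 12.2 CPM (-1.07, -1.82 to -0.36). The higher gene was the stress protein gene *Nupr1* (40.8 and 66.8 CPM), and without the collagen-rich members 0 were higher and 2 lower. Of 12 chemokine, antigen presentation and interferon genes, 2 were higher over all members, the class I gene *H2-K1* at 53.5 and 96.4 CPM and the eosinophil chemokine *Ccl11* at 46.6 and 80.4 CPM. Without the mixed barcodes 1 of 13 was higher, *H2-K1* no longer being past 1.5-fold, and in the collagen-poor members without them 0 of 11 were higher and 1 was lower. Of 12 imprinted growth genes, *Dlk1* and *Plagl1* were lower and *Zim1* higher, and *Cdkn1c*, a brake on the cell cycle, was at 319 and 462 CPM (0.54, 0.39 to 0.69). Collagen-rich members held 71 of the 76 WT and 34 of the 36 *Npc1*-/- UMIs of *Plagl1*, and without the collagen-rich members 7 genes of this list were tested, with 0 past 1.5-fold either way. With the mixed barcodes also left out 1 of the 7 was higher, *Cdkn1c* at 337 and 515 CPM (0.60). Of 10 tested endocrine genes, *Chga*, *Chgb* and *Sst* were higher and *Ins2* was lower over all members, and 1 was higher and 1 lower without the mixed barcodes. *Ins2* was at 17277 and 11082 CPM in members and at 12712 and 7246 CPM in endothelial cells.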

How the data were processed

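Dispersed islet cells were sequenced with 10x Genomics 3′ chemistry, 1 library per genotype. The files deposited by the authors hold raw counts of UMIs for each gene in each barcode called as a cell, with no normalization. The submitters' processing notes name Cell Ranger 3.1.0, Seurat 4.0.3 and the build mm10. A barcode was kept when it had over 1000 genes and below 50000 UMIs, of which mitochondrial genes made under 10% and haemoglobin genes at most 0.1%. Doublets were not removed from the values reported. Scrublet at its own threshold marked 65 WT (1.40%) and 40 *Npc1*-/- cells (0.937%). The libraries shared 12 barcodes, of which 0 were members.

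Endothelial cells had a UMI of at least 3 of *Pecam1*, *Cdh5*, *Kdr*, *Flt1*, *Plvap* and *Emcn*, fewer than 4 member markers and no *Pdgfra*. Fibroblasts had *Pdgfra*, at least 3 of *Col1a1*, *Col1a2*, *Col3a1*, *Dcn*, *Lum* and *Dpt*, and neither *Pecam1* nor *Cdh5*, with no limit on member markers. Endothelial cells and fibroblasts also had each hormone sum of the member rule under 10% of UMIs. Insulin cells had at least 10% of UMIs from *Ins1* and *Ins2*, and *Gcg*, *Sst* and *Ppy* with *Pyy* each under 10%. Insulin cells rich in another of these hormones were thus left out.

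UMIs were summed over the cells of a group in each library and divided by the group's total. Log2 ratios were taken with 0.5 counts added to each side and set relative to the median gene, which lay at -0.005. Intervals are exact Poisson for levels, Clopper-Pearson for shares and conditional binomial for ratios. They cover counting error only. A gene was tested when it reached 25 CPM in 1 of the libraries, and called past 1.5-fold.

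Genotype genes were named as the 10 highest and 10 lowest ratios among genes that reached 50 CPM in at least 1 library, an interval that left out 0, the same sign under each scaling, and a member level at least that of the other kept cells in the library where it was higher. The 15 genes named against the other groups had the highest smallest ratio among genes with at least 50 CPM. Of each list, up to 4 abundant genes and those past 1.5-fold could be named. Other genes, among them those given for the collagen-rich members and for *Acta2*, were chosen after their values were seen. A few genes that these rules name are not reported here. The members, gene lists and rules were chosen with earlier results of these data known. The alternatives without the 3 mixed barcodes, without the collagen-rich members and without the cells highest in *Apoe* were added after the data were seen.

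The software was R 4.3.3 with edgeR 4.0.16, for the TMM factors of the counts only, and Python 3.11.15 with scanpy 1.11.5, pandas 2.3.3, scipy 1.17.1 and numpy 2.4.6. The calculations were tested on simulated data. Gene positions are from the GENCODE annotation of GRCm38, and promoter sequences from RefSeq.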

Additional observations from a re-analysis of the deposited data

How the results depend on the processing

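No paired analysis was possible because each genotype had 1 library. Other scalings moved the median gene by at most 0.016 on the log2 scale. A stricter cell filter (at least 2000 genes, under 5% mitochondrial UMIs) gave member shares of 2.28% in WT and 2.73% in *Npc1*-/-, and members with under 2% insulin UMIs shares of 1.62% and 5.11%, a ratio of 3.15. Insulin RNA was a larger share of UMIs in WT members, so that limit removes more of them by its own construction. Without the collagen-rich members the share in *Npc1*-/- was 5.93%.

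The counts of genes past 1.5-fold higher and lower in *Npc1*-/- were 626 and 549 under the strict cell filter, 505 and 577 with the insulin limit, 462 and 463 from 10 CPM, 29 and 17 from 100 CPM, and 2527 and 2298 with no limit on the level. The share of higher genes among those called was 52.7% as reported and 63.0% from 100 CPM. Against endothelial cells and fibroblasts, the strict filter gave 48 higher and 12 lower genes and a limit of 100 CPM 37 and 28. Lower genes numbered 38 with the insulin limit, 32 with a mean over cells and 152 without the collagen-rich members. The share of WT members with at least 3 UMIs of G2 and mitosis genes was 3.85% after thinning to 1000 UMIs, beside 4.81% in *Npc1*-/-, and 1.22% with doublets removed at the expected rate, beside 3.94%, so its order between the libraries turned under both. With doublets removed *Hist1h1b* (-0.03) and *Tk1* (-0.28) were no longer past 1.5-fold. *C1qb* turned to -2.96 under the strict filter and -2.94 without the mixed barcodes.

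Of 476 values of 28 named genes under 17 alternatives, 427 kept direction and size, 47 moved and 2 reversed, 19 of those that moved under the insulin limit and 10 under the strict cell filter. The cause was not tested for any of these. Depth limits the rare genes, since 1 UMI in the members was worth 0.529 CPM in WT and 0.470 CPM in *Npc1*-/-.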

Other observations

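*Ankrd29*, an ankyrin repeat gene, lies next to *Npc1*, 16.0 kb beyond it. In the members it had 46 WT and 117 *Npc1*-/- UMIs, a level of 24.3 and 55.04 CPM (log2 ratio 1.17, 0.68 to 1.71), with a UMI in 36 of 260 and 84 of 291 cells. Collagen-poor members without the 3 mixed barcodes had levels of 26.0 and 68.3 CPM (1.38, 0.87 to 1.93). Endothelial cells of the same libraries had the opposite order, at 37.2 and 23.5 CPM (-0.67, -1.05 to -0.31), and insulin cells held 0.319 and 0.324 CPM. The difference between the cell groups was not tested.

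*Gm47283*, a gene annotated on the Y chromosome, had the lowest ratio of the named genes, with 134 UMIs in WT and 37 in *Npc1*-/- members (-2.01). It was not particular to the members, since its UMIs over all kept cells numbered 4038 in WT and 1007 in *Npc1*-/-, and endothelial cells showed a log2 ratio of -1.63. Of *Ddx3y*, *Uty*, Kdm5d and *Eif2s3y*, also on that chromosome, the same kept cells held 1 UMI in each library.

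*Cspg4* and *Higd1b* had a UMI in fewer *Npc1*-/- members, 79.7% and 79.0% against 90.4% and 86.5% in WT, at similar median depths. Since both genes helped to choose the members, these shares are a description.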
